A study of Arabidopsis thaliana with 12 samples.

Results

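The PLETHORA (PLT), BABY BOOM (BBM) and embryonic WUSCHEL-RELATED HOMEOBOX (WOX) genes described here, transcription factor genes of the root tip, young organs and the embryo, are 10 of the 27444 protein-coding genes of Arabidopsis thaliana considered. They were chosen by name, as BBM (AT5G17430), PLT1 (AT3G20840), PLT2 (AT1G51190), PLT3 (AT5G10510), PLT5 (AT5G57390), PLT7 (AT5G65510), WOX2 (AT5G59340), WOX5 (AT3G11260), WOX8 (AT5G45980) and WOX9 (AT2G33880), and found by the position of the assembled loci. RNA came from whole 14-day-old seedlings of 4 genotypes, namely wild type (WT), val1, val2 and the double mutant val1 val2, with 3 biological replicates each. Seedlings grew on plates with sucrose, in long days at a constant temperature. The alleles, the accession and the number of plants per library are not given in the sources used here.

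VAL1 and VAL2 encode B3-domain repressors that bind RY elements and, through Polycomb proteins, keep embryo and seed genes silent after germination. PLT and BBM proteins are AP2-type transcription factors. They maintain the root stem cell niche, pattern lateral organs and, in the case of BBM, can induce embryos on vegetative tissue when overexpressed. WOX proteins are homeodomain transcription factors, of which WOX2, WOX8 and WOX9 mark early lineages of the embryo and WOX5 marks the quiescent centre of the root. In a whole seedling, more cells expressing such a gene and more RNA per cell cannot be told apart.

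All values are FPKM, fragment counts corrected for the length of the transcript and the size of the library, so levels of different genes are compared per length. A gene's value is the FPKM of its loci times the share of the gene they covered. A gene covered in part thus stands below its deposited FPKM. Libraries held 19164 to 20293 loci, and the widths of the deposited confidence intervals imply a median of about 205 to 314 fragments per locus. The 10 most abundant loci took 10.9 to 14.8% of the summed FPKM in val1 val2, against 5.51 to 7.75% in every other library. A gene over which a library had no locus is given as listed at 0, which need not mean that it had no RNA. The levels and loci of the mutated genes did not all follow the labels. VAL1 fell short of a call in val1 (7.66 ± 4.38 against 16.5 ± 1.78 FPKM in WT, SD, n = 3, limma adjusted p = 0.0841). In val1 val2 it was at 15.6 ± 6.11 FPKM, not called against WT (adjusted p = 0.746) and called higher than in val1 (adjusted p = 0.0191). In val1 val2 replicates 1 and 2 the only VAL1 locus began at 12982815 (chromosome 2, TAIR10), at 26.6 and 22.3 FPKM. In WT it began at 12980516 to 12980545. The level in these 2 libraries is thus that of a partial locus times its coverage. A locus is called unbroken here where it runs across the point at which loci of the same mutant break in other libraries. The VAL1 locus was unbroken in val1 replicate 1 and val1 val2 replicate 3. VAL2 was called lower in val1 (13.6 ± 2.21 FPKM, adjusted p = 0.0421), and was also called lower in val2 (10.5 ± 0.792 FPKM) and val1 val2 (12.9 ± 0.307) than in WT (20.5 ± 2.45, adjusted p = 0.00443 and 0.00209), with an unbroken locus in val2 replicate 1 and val1 val2 replicates 2 and 3. Groups are named by their labels, and results without these libraries are given beside the comparisons.

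In val1 val2, each of the 10 genes stood above all WT libraries in at least 2 libraries. PLT1 stayed near 1 FPKM. PLT5 was the most abundant, followed by WOX8, BBM, PLT3 and WOX5. Of the 7 genes that entered the test, all 7 were called higher in val1 val2 than in WT (limma, adjusted p under 0.05). Among all 17534 genes tested, 58.9% were called in either direction and 24.6% were called higher, and in 27.3% all val1 val2 libraries lay above all WT libraries, as for these 7. Entry required 1 FPKM in at least 3 libraries, and BBM and PLT2 reached that level in no library outside val1 val2 and PLT7 in 1. These 3 genes entered through val1 val2, so they could enter only by differing and their calls lend no weight to the count. Without the libraries with an unbroken VAL1 locus, 5 of the 7 stayed in the fit and were called, with log2 differences to WT of 2.92 (PLT3) to 4.97 (PLT5). Without those with an unbroken VAL2 locus, 4 stayed, at 2.48 (PLT3) to 5.07 (PLT5). This leaves 1 val1 val2 library, which the fit assumes to vary like the other groups, so no calls are given.

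BBM is the gene of the group best known for inducing somatic embryos. It stood at 0.187, 0 and 0.523 FPKM in the WT libraries, 0.546, 0.919 and 0.527 in val1 and 1.00, 0.796 and 0.831 in val2. In val1 val2 it stood at 38.9, 28.6 and 21.8 FPKM. Each val1 val2 library was far above the other 9, none of which passed 1 FPKM by this measure. Before weighting by the share of the gene covered, the deposited locus values reached 1.07 FPKM there (val2 replicate 1). The log2 difference between val1 val2 and WT was 4.62 (SE 0.22, limma adjusted p = 3.31e-08) on the scale of FPKM + 1. The difference was 4.18 against val1 (adjusted p = 8.54e-08) and 4.00 against val2 (adjusted p = 9.74e-08).

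PLT1 and PLT2 act together in the root stem cell niche, and their levels differed from each other in val1 val2. PLT2 was at 0.518, 0 and 0.352 FPKM in WT, 0.345, 0.447 and 0 in val1, and 0, 0 and 0.844 in val2. It reached 5.24, 4.64 and 2.75 FPKM in val1 val2, above every other library. Its log2 difference to WT was 2.0 (SE 0.29, limma adjusted p = 0.000176). PLT1 was at 0.499, 0.423 and 0 FPKM in WT, 0.737, 0.655 and 0 in val1, and 1.04, 0.828 and 0.822 in val2. Its val1 val2 libraries, at 1.05, 0.972 and 0.745 FPKM, lay above WT and overlapped with val2. PLT1 reached 1 FPKM in only 2 libraries and was not in the fit. In a fit without the filter on low values its log2 difference between val1 val2 and WT was 0.57 (SE 0.22, limma adjusted p = 0.0474), and that between val1 val2 and val2 was 0.02 (adjusted p = 0.960).

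PLT3, PLT5 and PLT7 act in lateral root initiation, the placing of organs at the shoot tip and shoot regeneration. PLT5 showed the largest log2 difference of the 7 tested genes. It stood at 1.19, 1.15 and 2.1 FPKM in WT, 4.31, 2.55 and 3.25 in val1, and 2.64, 1.31 and 1.1 in val2. In val1 val2 it stood at 81.1, 70.8 and 64.5 FPKM. Means were 1.48 ± 0.537 FPKM in WT and 72.1 ± 8.38 in val1 val2 (SD, n = 3), a ratio of 48.7 and a log2 difference of 4.90 (SE 0.23, limma adjusted p = 4.10e-08). The val1 libraries lay between WT and val1 val2 without overlapping either, and the val2 libraries overlapped with WT.

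PLT3 had the steadiest level outside the double mutant. It was at 2.31, 2.59 and 2.42 FPKM in WT, 2.56, 2.83 and 2.67 in val1, and 2.86, 2.18 and 2.72 in val2. In val1 val2 it was at 18.1, 34.5 and 33.6 FPKM, with replicate 1 lower than the other two and all 3 above the remaining 9 libraries. Means of 2.44 ± 0.140 FPKM in WT and 28.7 ± 9.22 in val1 val2 (SD, n = 3) gave a ratio of 11.8 and a log2 difference of 3.06 (SE 0.21, limma adjusted p = 6.57e-07).

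PLT7 was listed at 0 in 7 of the 9 libraries outside val1 val2, the exceptions being WT replicate 3 at 0.803 FPKM and val2 replicate 3 at 1.02. It reached 12.5, 7.02 and 8.75 FPKM in val1 val2, with no overlap between the double mutant and any other group. The log2 difference to WT was 3.07 (SE 0.32, limma adjusted p = 1.65e-05).

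**Figure D1:**
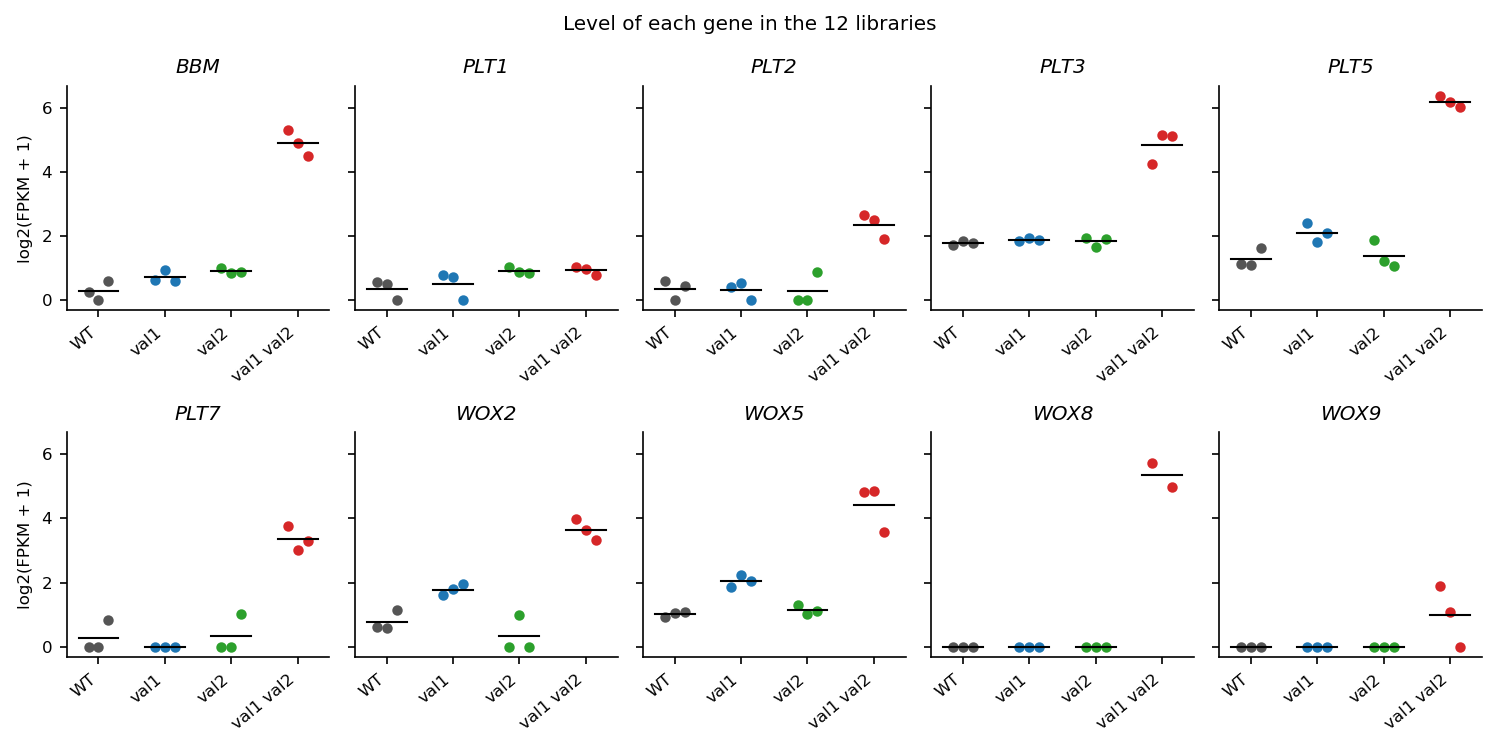
Level of each of the 10 genes as log2(FPKM + 1), 1 panel per gene and 1 point per library, coloured by genotype, with a line at the mean of the group's points. The val1 val2 points lie above all others for every gene except PLT1 and 1 library of WOX9, and WOX8 has 2 points in val1 val2.

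Of the embryonic WOX genes, WOX2, which acts in the apical lineage of the early embryo, had a measurable level in WT. It stood at 0.539, 0.493 and 1.21 FPKM in WT, 2.04, 2.47 and 2.86 in val1, 0, 0.993 and 0 in val2, and 14.8, 11.5 and 8.97 in val1 val2. The val1 libraries were all above WT and the val2 libraries were not. From WT (0.746 ± 0.399 FPKM) to val1 val2 (11.8 ± 2.94, SD, n = 3) the ratio was 15.8 and the log2 difference 2.87 (SE 0.28, limma adjusted p = 1.11e-05). Its loci covered 36.3, 55.1 and 79.2% of the gene in WT and 82.6 to 90.5% in val1 val2, which adds to the ratio. The deposited FPKM of these loci was 0.894 to 1.52 in WT and 10.9 to 16.4 in val1 val2.

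WOX8 and WOX9, which act in the basal lineage of the embryo and in early growth, were listed at 0 in all 9 libraries of WT, val1 and val2. WOX8 stood at 51.9 and 30.7 FPKM in val1 val2 replicates 2 and 3. In replicate 1 a single locus of 20.7 FPKM ran from WOX8 into the next gene (chromosome 5, 18648706 to 18654046, TAIR10) with 36.5% of it in WOX8, so no value was assigned. WOX9 stood at 2.72, 1.1 and 0 FPKM in val1 val2. The presence of WOX8 thus rests on 2 libraries with a value and that of WOX9 on 2 of 3. Neither entered the fit, and with WT listed at 0 no ratio is given. In the fit without the filter on low values the log2 difference to WT was 5.36 for WOX8 (2 val1 val2 libraries) and 0.99 for WOX9. Both could enter that fit only through val1 val2, and its SE draws on groups listed at 0 throughout. No p-value is therefore given for them.

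WOX5 is expressed in the quiescent centre, the few slowly dividing cells at the centre of the root stem cell niche. It stood at 0.899, 1.08 and 1.11 FPKM in WT, 2.63, 3.69 and 3.16 in val1, and 1.44, 1.04 and 1.18 in val2. In val1 val2 it stood at 27.3, 28.2 and 10.8 FPKM, replicate 3 being the lowest and still above all 9 other libraries. Means were 1.03 ± 0.113 FPKM in WT and 22.1 ± 9.76 in val1 val2 (SD, n = 3), a ratio of 21.5 and a log2 difference of 3.40 (SE 0.29, limma adjusted p = 3.65e-06). Its loci covered 64.3 to 73.5% of the gene in WT and 86.8 to 95.3% in val1 val2, which adds to the ratio. The deposited FPKM of these loci was 1.37 to 1.72 in WT and 11.6 to 32.5 in val1 val2.

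In the single mutants no gene of the 7 tested was called. In val1 against WT, where 3.91% of all tested genes were called and 2.19% were called higher, the largest differences were those of WOX5, WOX2 and PLT5. WOX5 stood at 3.16 ± 0.528 FPKM in val1 (SD, n = 3), with a log2 difference of 1.03 to WT (95% interval 0.39 to 1.67, limma adjusted p = 0.0854). WOX2 stood at 2.45 ± 0.409 FPKM in val1, with a log2 difference of 1.00 (0.37 to 1.63, adjusted p = 0.0888). PLT5 stood at 3.37 ± 0.889 FPKM, with a log2 difference of 0.82 (0.30 to 1.34, adjusted p = 0.0913). The val1 libraries of these 3 genes and of BBM lay above all 3 WT libraries, and 13.9% of all tested genes showed that separation. By the deposited FPKM of the loci it did not hold for BBM (0.717 in val1 replicate 3, 1.00 in WT replicate 3). By that measure WOX5 was at 1.37 to 1.72 in WT and 2.74 to 4.22 in val1, and WOX2 at 0.894 to 1.52 and 2.31 to 3.25. The unadjusted p was under 0.05 for WOX5, WOX2 and PLT5. The share of all tested genes with such a p is not given here, so this count carries no weight. Beside these, BBM differed by 0.44 between val1 and WT (adjusted p = 0.327), PLT3 by 0.10 (0.882), PLT2 by -0.03 (1.00) and PLT7 by -0.28 (0.735). With the libraries whose VAL1 locus was unbroken left out, WOX5 was called in val1 at a log2 difference of 1.12 (limma adjusted p = 0.00193), and over the 25 alternatives its adjusted p ran from 0.00118 to 0.241.

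In val2 against WT, where 4.46% of all tested genes were called and 1.77% were called higher, the largest difference was that of BBM, at 0.62 on the log2 scale (95% interval 0.14 to 1.1, limma adjusted p = 0.148). BBM was the only one of the 7 whose val2 libraries all lay above WT, a separation that 17.1% of tested genes showed. It was also the only one with an unadjusted p under 0.05, for which the share of all tested genes is not given here. By the deposited FPKM of its loci the separation did not hold, with val2 replicate 3 at 0.986 and WT replicate 3 at 1.00. WOX2 differed by -0.45 between val2 and WT (-1.08 to 0.18, adjusted p = 0.466) and the other 5 by -0.05 to 0.13. The intervals for WOX5 (-0.51 to 0.77) and PLT5 (-0.43 to 0.61) leave room for a difference in either direction. No gene was called in val2 without the libraries with an unbroken VAL1 or VAL2 locus either, though BBM was then not in the fit. These levels rest on few fragments, about 10 to 15 per library for WOX5 and 10 to 18 for WOX2 in WT, as implied by the confidence intervals, against 1244 to 1825 for PLT5 in val1 val2.

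The double mutant was also set against each single mutant. All 7 tested genes were called higher in val1 val2 than in val1, where 58.1% of tested genes were called and 25.6% called higher. They were also called higher than in val2, where 59.8% were called and 25.1% called higher. BBM, PLT2 and PLT7 entered the fit through val1 val2, as above, so their calls and separation lend no weight to these counts. Against val1 the log2 differences were 4.08 for PLT5 (limma adjusted p = 1.99e-07), 3.35 for PLT7 (9.29e-06) and 2.96 for PLT3 (9.39e-07), then 2.37 for WOX5 (5.51e-05), 2.03 for PLT2 (0.000170) and 1.87 for WOX2 (0.000246). Against val2 they were 4.80 for PLT5 (4.46e-08), 3.32 for WOX2 (3.32e-06) and 3.27 for WOX5 (4.27e-06), then 3.01 for PLT7 (1.64e-05), 3.00 for PLT3 (6.66e-07) and 2.05 for PLT2 (0.000133). The differences of WOX2 and WOX5 were smaller against val1 than against val2, which was not tested in itself. All val1 val2 libraries of the 7 genes lay above all val1 and all val2 libraries, a separation that 28.4% of tested genes showed against val1 and 27.8% against val2. These comparisons share the val1 val2 libraries. Without the libraries with an unbroken VAL1 locus, the 5 genes still in the fit were called in both, at 1.95 to 4.31 against val1 and 2.87 to 4.88 against val2. Without those with an unbroken VAL2 locus, which leaves 1 val1 val2 library, the 4 genes still in the fit stood at 2.2 to 4.25 and 2.47 to 5.22.

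The interaction compares the change in val1 val2 with the sum of the changes in val1 and val2. It was called for all 7 tested genes, each with a larger change in the double mutant than that sum, and for 46.7% of all tested genes, in 21.3% with a larger change in this direction. It was largest for PLT5, at 3.99 on the log2 scale (SE 0.33, limma adjusted p = 6.60e-06), and BBM, at 3.56 (SE 0.31, adjusted p = 7.99e-06). The lowest values were those of PLT2 at 2.08 (SE 0.41, adjusted p = 0.00209) and WOX5 at 2.24 (SE 0.41, adjusted p = 0.00128). Without the libraries with an unbroken VAL1 locus it was 2.39 to 4.21 for the 5 genes still in the fit, all called. Without those with an unbroken VAL2 locus, which leaves 1 val1 val2 library, it was 2.37 to 4.40 for 4 genes. BBM, PLT2 and PLT7 entered the fit through val1 val2, as above. On a log2(FPKM + 1) scale a sum of changes depends on the pseudocount for genes as low as these in WT.

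**Figure D2:**
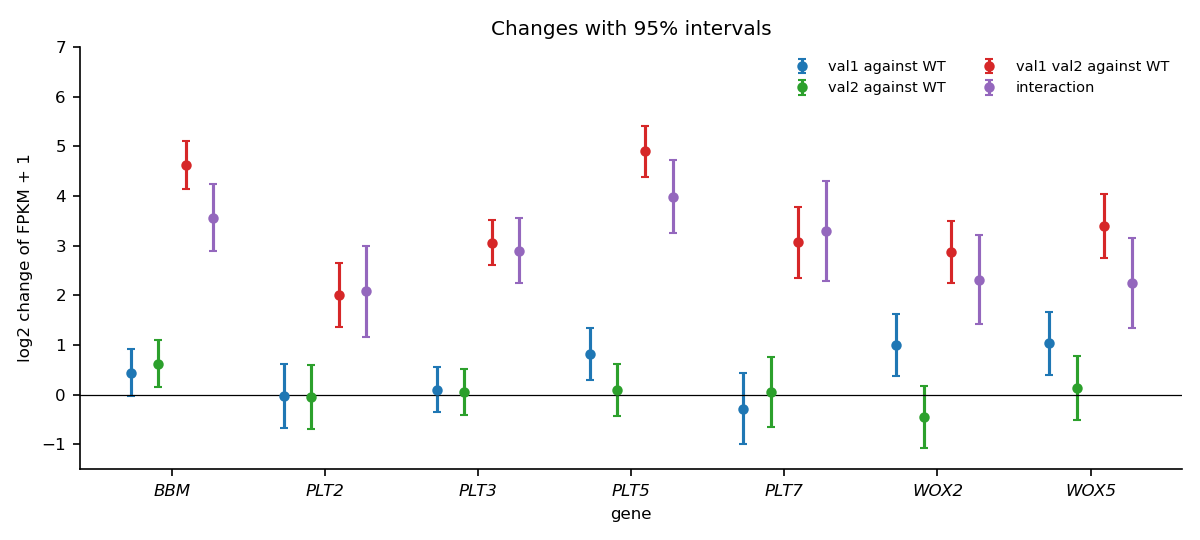
Log2 change of FPKM + 1 (points) with its 95% interval (bars) for the 7 tested genes in val1, val2 and val1 val2 against WT and for the interaction. The val1 val2 points lie between 2.0 and 4.90, the interaction points between 2.08 and 3.99, and the val1 and val2 points between -0.45 and 1.03.

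The order of the 10 genes changed between genotypes. PLT3 was the most abundant in every WT and val2 library, at 28.4 to 45.2% of the summed FPKM of the 10 genes in WT. In val1 it was PLT5 in replicates 1 and 3 and WOX5 in replicate 2, and the val1 levels of PLT5, WOX5, PLT3 and WOX2 overlapped from each to the next. By the deposited FPKM of the loci, PLT5 stood above PLT3 in val2 replicate 1 (2.96 against 2.92). By that measure WOX5 stood above PLT5 in val1 replicate 3 (4.22 against 3.56). PLT5 led in every val1 val2 library, at 40.2, 29.6 and 35.3% of the sum, with no WOX8 value in the sum of replicate 1. The order of mean FPKM there was PLT5, WOX8, BBM, PLT3, WOX5, WOX2, PLT7, PLT2, WOX9 and PLT1. Neighbours in that order overlapped except PLT5 and WOX8, PLT7 and PLT2, and PLT2 and WOX9. By the deposited FPKM PLT2 and WOX9 did overlap, with PLT2 at 2.79 in replicate 3 and WOX9 at 2.84 in replicate 1. The sum of the 9 genes other than WOX8 was 5.73 to 8.51 FPKM in WT, 12.5 to 13.6 in val1, 7.16 to 8.98 in val2 and 152 to 202 in val1 val2.

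**Figure D3:**
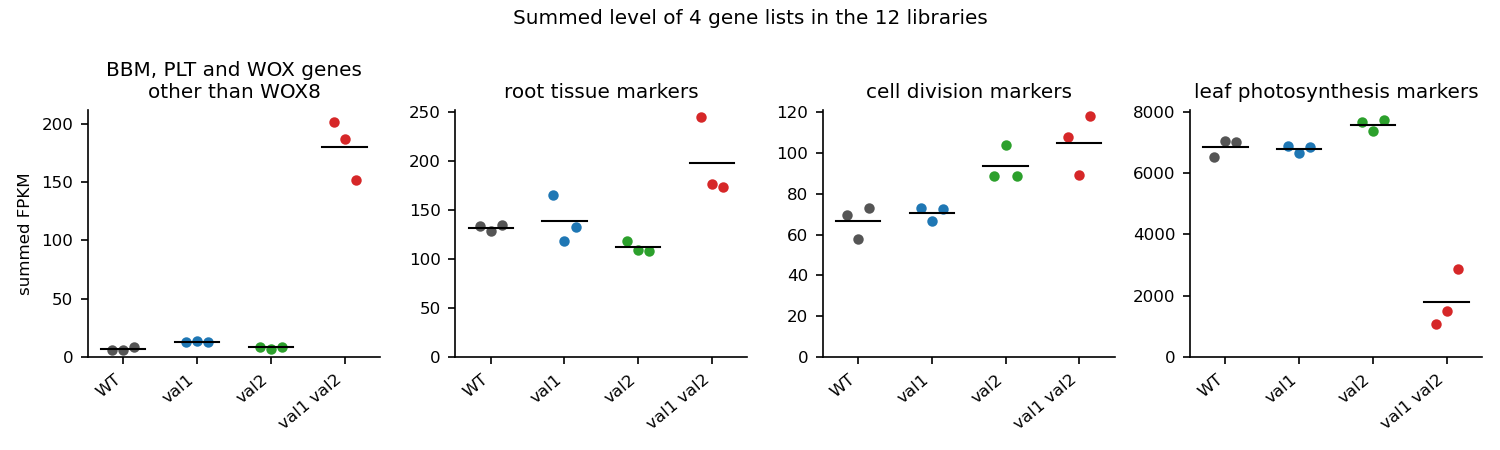
Summed FPKM of the 9 genes other than WOX8 and of the root tissue, cell division and leaf photosynthesis markers with a value in every library (1 point per library, linear axis from 0, a line at the group mean), by genotype. The sum of the 9 genes lies at 152 to 202 FPKM in val1 val2, against 5.73 to 13.6 in the other 9 libraries.

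The val1 level of each gene can be set against its val1 val2 level. It was 20.8% for WOX2, 14.3% for WOX5, 9.36% for PLT3, 6.27% for PLT2, 4.67% for PLT5, 2.23% for BBM and 50.3% for PLT1, which was near 1 FPKM or below in both. PLT7, WOX8 and WOX9 were listed at 0 in val1. For the 12 seed reserve genes (seed storage albumins, cruciferins, oleosins and the vicilin-like PAP85) the same share was 0.0762 to 1.2%, the highest being that of PAP85 and the next 0.433%. Of those 12, 11 were called higher in val1 than in WT, as were 2.19% of all tested genes. These 11 were listed at 0 in WT and could pass the filter only through mutant libraries, so their calls lend no weight to this count. All these shares include whatever level a gene already had in WT. The val1 mean of PLT3 (2.69 FPKM) was close to its WT mean (2.44), and that of PLT2 (0.264) was below its WT mean (0.290). For WOX2, WOX5, PLT5 and BBM all val1 libraries lay above WT, as given above. Among the seed reserve genes only OLEO4 was above 0 in WT, at a mean of 2.12 FPKM. The shares therefore do not compare the change in val1 between the lists.

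The shape of the assembled loci also differed. Over PLT3 (chromosome 5, TAIR10) the locus ended at 3319497, 3319677 and 3319559 in the val1 val2 libraries, against 3320279 to 3320485 elsewhere. The next gene, RBK1, had its own locus at 1.48 to 2.35 FPKM in val1 val2 and 2.50 to 6.0 elsewhere. PLT7 loci ended at 26189049 in val1 val2 replicates 1 and 2 and at 26189723 in replicate 3. A separate locus next to PLT7 stood at 30.8, 40.2 and 14.6 FPKM in val1 val2, against 5.69 to 10.4 in every other library. It ran into the end of PLT7 in val1 val2 replicates 2 and 3 and also in val1 replicates 2 and 3, and was not counted for PLT7, which is listed at 0 in val1. How many of its fragments belong to PLT7 was not tested.

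**Figure D4:**
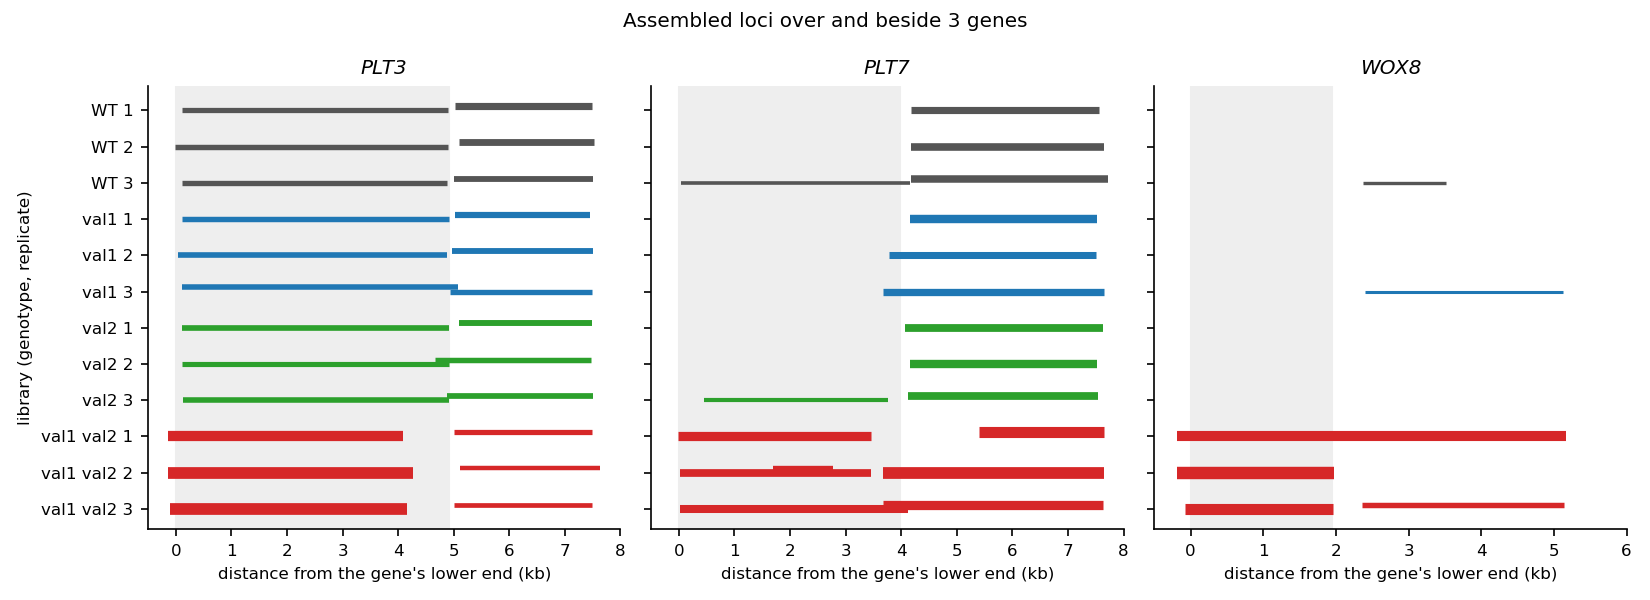
Assembled loci over and beside PLT3, PLT7 and WOX8 in the 12 libraries, drawn as bars by the distance in kilobases from the end of the gene with the lower coordinate, thicker for a higher FPKM, coloured by genotype, with the gene span shaded. The PLT3 bars are shorter in the 3 val1 val2 libraries, and the WOX8 bar of val1 val2 replicate 1 runs on past the gene.

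The genes on either side of the 10 were called in both directions. Of the 20 flanking protein-coding genes 12 were in the fit, and 3 were called higher, 8 lower and 1 not called in val1 val2 against WT, with a median log2 difference of -0.79 against -0.14 over all tested genes. Over all tested genes 58.9% were called in either direction and 24.6% higher. Of these calls, those of RAC2, NUDT22 and AT1G51200 were lost on leaving out certain single libraries (limma adjusted p up to 0.197). The gene before PLT5 is VIN3, a PHD-finger gene known from the vernalization response. VIN3 was listed at 0 in WT and stood at a mean of 7.34 FPKM in val1 val2 (log2 difference 3.05, limma adjusted p = 8.88e-09). With WT at 0 it could enter the fit only through mutant libraries, so its call lends no weight to the count. The genes on both sides of BBM, IRX3 and AT5G17440, were lower by -1.22 and -0.63 on the log2 scale (adjusted p = 0.00378 and 0.000307). The genes on both sides of WOX2, AT5G59330 and AT5G59350, were lower by -2.16 and -1.11 (adjusted p = 0.00183 and 7.62e-05).

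Genes whose pattern over the 12 libraries was most like that of each tested gene were named by the root mean square of the log2 differences, each gene taken relative to its WT mean. The closest pair was PLT3 with WRKY38, at 0.13, followed by PLT3 with AT5G35660 at 0.17 and WOX5 with AT5G22200 at 0.17. The second for WOX5 was LCV3 at 0.28. PLT2 was nearest to AHL18 at 0.23 and CML11 at 0.23, and PLT5 to AT3G14360 at 0.27 and AT2G47050 at 0.34. BBM was nearest to AT1G25530 at 0.28 and XYP1 at 0.29. WOX2 was nearest to LHCB4.3 at 0.32 and AT4G19380 at 0.37, and PLT7 to HCHIB at 0.31 and AT1G22170 at 0.33. The likeness is one of differences on the FPKM + 1 scale and not of levels. WRKY38 and AT5G35660 stood at means of 0 FPKM in WT, val1 and val2, and at 7.17 and 7.45 in val1 val2. PLT3 went from 2.44 FPKM in WT to 28.7 in val1 val2. The WOX5 neighbour AT5G22200 stood at a mean of 0 FPKM in WT and val2, 1.15 in val1 and 11.7 in val1 val2. The PLT5 neighbour AT3G14360 stood at 2.11 FPKM in WT, 4.05 in val1, 2.41 in val2 and 86.8 in val1 val2, so its val1 mean was also above its WT mean.

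The other genes of the 2 families were followed in val1 val2 against WT. Of 13, 10 were in the fit, with 7 called higher, 2 lower and 1 not called, and a median log2 difference of 1.31. With libraries scaled to a common median, 1 was called lower. Over all tested genes 58.9% were called in either direction and 24.6% higher, the shares to set beside this and the following lists. AIL1, WUS, WOX3, WOX11 and WOX12 reached 1 FPKM only in val1 val2. They could enter the fit only by differing and lend no weight to the count. WOX12 and WOX11, which act in root formation from leaf explants, were listed at 0 in all 3 WT libraries and stood at means of 27.6 ± 6.25 and 18.8 ± 9.14 FPKM in val1 val2 (SD, n = 3). Their log2 differences were 4.81 (limma adjusted p = 1.97e-09) and 4.18 (adjusted p = 3.74e-06). AIL1, an AP2-type relative of PLT genes, was listed at 0 in WT and stood at 21.3 ± 11.8 FPKM (log2 difference 4.36, adjusted p = 3.51e-07). WOX3, which acts at the margins of lateral organs, was listed at 0 in WT and stood at 4.04 ± 1.43 FPKM (2.29, adjusted p = 2.51e-06). ANT, an AP2-type gene of lateral organ growth, was not called, with a log2 difference of -0.02 (adjusted p = 0.916).

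Embryo regulators that act with or beside BBM included 8 tested genes of 10, with 6 called higher, 2 lower and a median of 2.50. FUS3, ABI3 and LEC1 reached 1 FPKM only in val1 val2 and lend no weight to this count. FUS3, a B3 regulator of seed maturation, was listed at 0 in WT and stood at 78.8 ± 11.6 FPKM in val1 val2 (log2 difference 6.31, limma adjusted p = 4.04e-11). ABI3 (5.28, adjusted p = 7.11e-10) and LEC1 (4.08, adjusted p = 1.25e-09) were likewise listed at 0 in WT. AGL15, a MADS-box gene expressed in embryos, went from 3.06 ± 0.262 FPKM in WT to 76.7 ± 19.7 in the double mutant (4.23, adjusted p = 1.89e-08). AGL15 was the one gene of this list called in val1, where it stood at 16.8 ± 2.01 FPKM.

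Genes of the root stem cell niche and the RGF peptide pathway that acts on PLT proteins split. Of 13, 10 were tested, with 3 called higher, 3 lower and 4 not called, and a median of 0.37. SMB reached 1 FPKM only in val1 val2 and lends no weight to this count. SMB, a root cap regulator, was higher (log2 difference 3.08, limma adjusted p = 4.53e-05), as was RGI1, a receptor of RGF peptides (2.53, adjusted p = 1.59e-06). RGI3, a related receptor, was lower (-1.70, adjusted p = 3.26e-05), as was SHR, which patterns the root ground tissue (-0.74, adjusted p = 0.00222). With libraries scaled to a common median the list had 5 called higher and 2 lower.

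Of 12 genes in auxin steps linked to PLT and WOX genes, 9 were tested, with 5 called higher, 2 lower and 2 not called, and a median of 0.64. YUC4 reached 1 FPKM only in val1 val2 and lends no weight to this count. YUC4, an auxin synthesis enzyme, was listed at 0 in WT and stood at 11.8 ± 4.08 FPKM in val1 val2 (log2 difference 3.62, limma adjusted p = 1.70e-07). CUC1, an organ boundary regulator, was higher (3.43, adjusted p = 1.95e-06), as was LBD16, a target of auxin response factors in lateral root initiation (2.22, adjusted p = 0.000329). ARF7, the response factor upstream of LBD16, was called lower (-2.14, adjusted p = 0.0110), at 3.90, 0 and 8.82 FPKM in val1 val2 against 15.1 ± 1.07 in WT. Without replicate 2, listed at 0, the log2 difference was -1.21 (limma adjusted p = 0.00260).

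**Figure D5:**
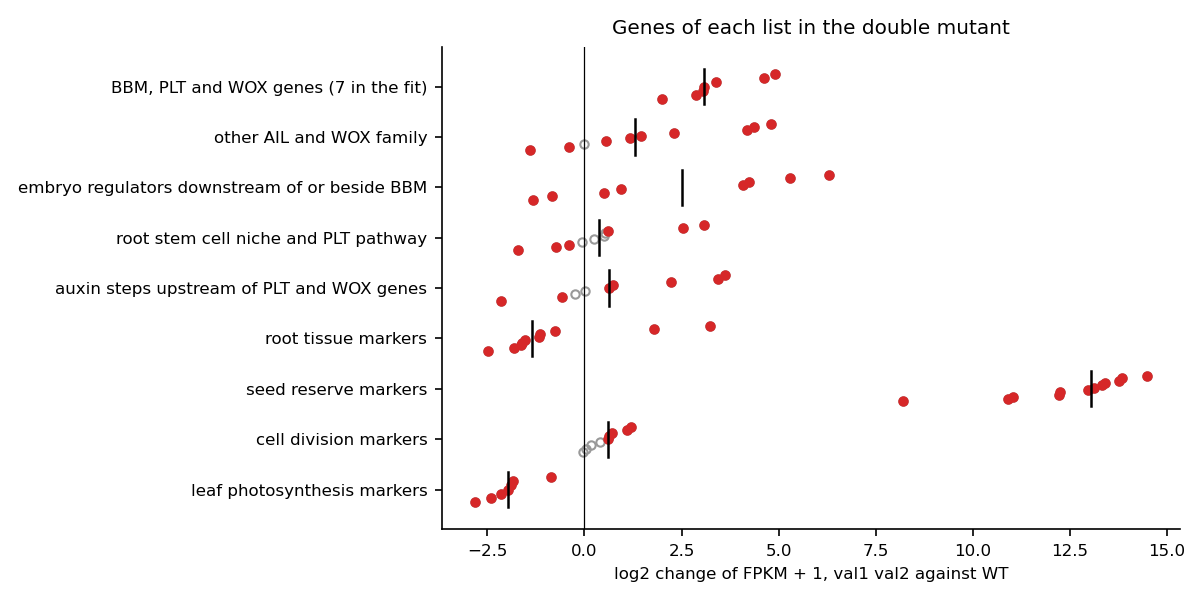
Log2 change of FPKM + 1 between val1 val2 and WT for the tested genes of each list (1 point per gene, filled red where called and open grey where not, with a vertical line at the median). The first row holds the 7 of the 10 PLT, BBM and WOX genes in the fit, which all lie at 2.0 or above, and 8 of the 10 tested root tissue markers lie below 0.

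Markers of root tissues, seed reserves, cell division and leaf photosynthesis moved in several directions. Of 12 root tissue markers 10 were tested, with 2 called higher, 8 lower and a median log2 difference of -1.35. CASP1, of the endodermis, fell from 29.1 ± 2.24 to 5.10 ± 3.93 FPKM (limma adjusted p = 0.000151), and PHO1, of the stele, from 21.5 ± 3.18 to 5.53 ± 1.90 (adjusted p = 0.000126). The phosphate transporter PHT1;4 rose from 15.3 ± 1.14 to 155.8 ± 39.5 FPKM (adjusted p = 5.63e-07) and WER, of the root epidermis, from 2.34 ± 0.0371 to 11.1 ± 4.68 (adjusted p = 0.000304). The root list without CASP2, which had no value in some libraries, summed to 128 to 134 FPKM in WT, 118 to 165 in val1, 108 to 118 in val2 and 173 to 245 in val1 val2, most of the last being PHT1;4.

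All 12 seed reserve genes were tested and called higher, with a median log2 difference of 13.05. All but OLEO4 were listed at 0 in every WT library and could pass the filter only through mutant libraries. Their calls lend no weight to this count. The 7 with a value in every library (all but SESA1 to SESA4 and OLEO4) summed to 0 FPKM in WT, 62.2 to 67.7 in val1, 4.42 to 5.79 in val2 and 28564 to 55462 in val1 val2. SESA3, a storage albumin, was listed at 0 in WT and had a log2 difference of 14.48 (limma adjusted p = 1.38e-10, 2 val1 val2 libraries with a value). SESA4, SESA2 and OLEO1 followed at 13.86, 13.76 and 13.41. Of 10 cell division markers 9 were tested, with 5 called higher, 0 lower and 4 not called, and a median of 0.61. None was lower at an unadjusted p under 0.05 (0 of 9). The mitotic kinase genes CDKB1;1 (1.21, adjusted p = 4.49e-05) and CDKB2;2 (1.09, adjusted p = 2.11e-05) were the furthest from WT, followed by KN (0.70) and CDKB2;1 (0.63). All 7 of the 10 leaf photosynthesis genes tested were called lower, with a median of -1.96, led by RCA (-2.81), LHCA3 (-2.40), PSAF (-2.15) and LHCA1 (-1.96). The 7 of them with a value in every library summed to 6523 to 7056 FPKM in WT, 6651 to 6876 in val1, 7368 to 7718 in val2 and 1067 to 2873 in val1 val2. The part of these markers in the levels of the PLT, BBM and WOX genes was not tested. In val1, where limma called 3.91% of all tested genes, 0 of the 10 root, 9 cell division and 7 photosynthesis markers tested were called, and 1, a root marker, had an unadjusted p under 0.05.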

How the data were processed

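RNA-seq was measured in 12 libraries, 4 genotypes with 3 replicates each, grouped by sample title. File names of val1 replicates 2 and 3 disagree with the titles, which were followed. The authors deposited FPKM per assembled locus and library with confidence bounds, made with Cufflinks per the file headers. TAIR10, Cufflinks 2.2.1, TopHat2 2.1.1, MACS2 and Cuffdiff are listed, with no roles, in the submitters' processing notes. The files hold no gene names, no read counts and no locus at 0 FPKM. The total depth per library is not given, and fragment numbers were read approximately from the confidence bounds.

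Loci were matched by position to the protein-coding genes of TAIR10.1 on chromosomes 1 to 5. Since the builds differ in name, their fit was checked: the median locus began 65 to 84 and ended 73 to 86 bases inside the annotated gene over 3 parts of each chromosome. A gene's value was the sum of FPKM times the share of the gene covered. It was missing where a locus covered 50% or more of several genes and the gene made up under 75% of it (3934 genes in any library). It was also missing where 1 locus lay in several genes (566 genes), and where a locus was absent although both remaining replicates had 10 FPKM or more (214 values). Overlapping genes on opposite strands and near-identical copies remain uncertain.

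The two-sided test was that of limma 3.58.1 (R 4.3.3) on log2(FPKM + 1), in 1 fit of 4 group means with a mean-dependent prior, over 17534 genes with 1 FPKM in at least 3 libraries and 2 values in each group. Differences on this scale understate those of low genes. A call is a p under 0.05 after Benjamini-Hochberg adjustment over all genes tested. The fit was tested on simulated data. Tables and figures used Python 3.11.15, numpy 2.4.6, pandas 2.3.3 and matplotlib 3.10.9.

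All 10 genes are named; of each other list, up to 4 called genes with the largest absolute difference in val1 val2 against WT; and, for each tested gene, the 2 most alike. Other genes named (ANT, flanking genes) were chosen after their values were seen. The 10 genes and all lists were chosen with earlier results of these data known. The 25 alternatives changed the pseudocount, filter, assignment, scaling, model and libraries. No sequence is printed, and genome binding data were not analysed here.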

Additional observations from a re-analysis of the deposited data

Results flagged for a closer look

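For the 7 tested genes the difference between val1 val2 and val2 exceeded that between val1 and WT, by a test of the interaction. The change in val1 val2 exceeded the sum of the changes in val1 and val2 by 3.99 on the log2 scale for PLT5 (limma adjusted p = 6.60e-06), 3.56 for BBM (7.99e-06), 3.30 for PLT7 (0.000208) and 2.90 for PLT3 (2.61e-05). The excess was 2.32 for WOX2 (0.000928), 2.24 for WOX5 (0.00128) and 2.08 for PLT2 (0.00209). BBM, PLT2 and PLT7 entered the fit only through their val1 val2 libraries, so their values lend no weight to this count. An interaction was called for 46.7% of all tested genes. The groups are those of the labels. VAL1 itself was not called lower than WT in val1 or val1 val2 (limma adjusted p = 0.0841 and 0.746), and some loci were unbroken, as given above. For genes this low in WT a sum of changes on the FPKM + 1 scale depends on the pseudocount. The interaction of PLT2 ran from 1.92 to 4.37 over the alternatives with it in the fit.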

How the results depend on the processing

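Of the 7 tested genes, 0 were called in val1 and 0 in val2 against WT, and 7 in each comparison of val1 val2 and in the interaction. Of the 25 alternatives, every val1 val2 call held in those that kept at least 2 val1 val2 libraries and had the gene in the fit. The log2 differences to WT ran from 4.80 to 5.56 for PLT5. They ran from 4.36 to 6.80 for BBM, which, like PLT2 and PLT7, entered the main fit through val1 val2. In val1, 1 gene was called with a pseudocount of 0.1, 2 with only the groups compared in the fit, 3 with library weights, and 0 to 1 on leaving out each library in turn. WOX5 was called without val1 val2 replicate 3 (limma adjusted p = 0.00118) and WOX2 without val2 replicate 2 (0.0317). Library weights called 1 gene in val2, BBM (0.0214). Chosen after seeing the data, leaving out libraries with an unbroken VAL1 locus gave 1 call in val1 and 5 in each val1 val2 comparison and the interaction. Leaving out those with an unbroken VAL2 locus kept 4 of the 7 genes in the fit, since fewer genes passed the filter on low values with 1 val1 val2 library. Their log2 differences to WT were 2.48 (PLT3) to 5.07 (PLT5). There the lone library is assumed to vary like the other groups, and, as on leaving out single libraries, 1 value per group sufficed. Leaving out single libraries gave 5 to 7 calls in the val1 val2 comparisons for the same reason. Correlations between libraries of the same replicate number were -0.04 to 0.06 over 18 pairs. In 21 of 36 comparisons, each among 3 replicates, a library was best with its own number. These values do not settle whether replicate numbers pair the libraries. The replicate block gave 0 calls in each single mutant and 7 in the others.

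Over all genes, calls ran from 399 to 1838 around 685 in val1 and from 305 to 2263 around 782 in val2, the highest with library weights. Leaving out 1 library moved the val1 count by over 1.5 times for WT replicates 1 and 2 (399 and 425), val1 replicates 2 and 3 (444 and 434) and val1 val2 replicate 3 (1270). It did so for the val2 count for WT replicates 1 and 2 (420 and 339), val2 replicates 1 to 3 (305, 470 and 420) and val1 val2 replicate 3 (1606). The added alternatives without unbroken VAL1 or VAL2 loci gave 876 and 1283 calls in val1 and 1427 and 951 in val2, and fitting only the groups compared gave 1348 in val2. Scaling to a common median moved the median log2 difference of all genes in val1 val2 against WT from -0.14 to 0.03. The share of calls that were higher went from 41.8 to 52.4% there, from 44.1 to 52.9% against val1, from 41.9 to 52.9% against val2 and from 45.7 to 54.9% for the interaction. The calls of the 7 genes did not change with scaling. Of the other genes counted in val1 val2 against WT, ACR4, AUR1, WOX13 and AHL15 lost their calls without at least 1 single library. A filter at 5 FPKM left some of the 7 out, and the interaction was not run with only the groups compared. Levels near 1 FPKM rest on few fragments, which limits the single-mutant comparisons.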
